A study of Bos indicus with 9 samples.

Results

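The window described here is a megabase of chromosome 29, from 49000000 to 50000000 of the cattle assembly ARS-UCD1.2, taken as the neighborhood of IGF2, H19, TNNT3, and TNNI2. It was chosen by position, around the peak with the largest area under the curve (AUC) among the peaks found in muscle alone on the chromosomes. The AUC is the peak caller's signal, the −log10 p above its threshold added up over the length of the peak, and the size of that peak and its absence from the other lists are a description of the choice, not a finding. Every deposited ATAC-seq peak overlapping the window was a member, which gave 160 of the 140923 peaks of 3 lists. These were 72 of the 78528 hypothalamus peaks, 79 of the 40104 muscle peaks, and 9 of the 22291 liver peaks. ATAC-seq cuts accessible DNA with the Tn5 transposase, and a peak is a stretch where the cuts are denser than the background. The tissues came from 3 unrelated Brahman heifers past puberty, of similar age and weight with no treatment in the labels, and the same animals gave all 3 tissues. The samples were frozen after slaughter, and each is a bulk tissue, so a larger share of one cell type and more open chromatin per cell cannot be told apart. Each list combines the 3 heifers of a tissue into 1 set of peaks, with no value for a single heifer, so no difference between tissues was tested and the depth behind a single peak is unknown.

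IGF2 encodes insulin-like growth factor 2, a growth factor of fetal and muscle tissue that is expressed mainly from the paternal chromosome. H19 is a noncoding RNA expressed from the maternal chromosome. In mammals a control region, methylated on the paternal and bound by CTCF on the maternal chromosome, decides which neighbor uses the shared enhancers. TNNT3 and TNNI2 encode troponin T and troponin I of fast skeletal fibers, subunits of the complex on the thin filament that makes contraction depend on calcium. In the gene order of a Tharparkar assembly, NIAB-ARS_B.indTharparkar_mat_pri_1.0, the coding genes run ASCL2, TH, INS, IGF2, MRPL23, TNNT3, PRR33, LSP1, TNNI2, SYT8, CTSD. H19 was not matched in that table, where 3 of the 4 named genes have an entry. INS encodes insulin and TH encodes tyrosine hydroxylase, the first enzyme of dopamine synthesis. Gene positions on ARS-UCD1.2 were not used here, so no peak is assigned to a gene, and the peaks are named by position.

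Muscle had more peaks in the window than in nearly all other stretches of the same length. Consecutive windows of 1 Mb on chromosomes 1 to 29 and X, 2640 in all, held a median of 7 muscle peaks, and the window held 79, 11.3 times as many, with 7 windows above it. The 72 hypothalamus peaks were 3.6 times the median of 20, and 154 windows held more. The 9 liver peaks were 4.5 times the median of 2, and 331 windows held more. Muscle peaks outnumbered hypothalamus peaks in 131 of the 2640 windows (4.96%), and in the window there were 1.10 muscle peaks per hypothalamus peak against 0.429 over the chromosomes. The order of the tissues depended on how peaks were counted. At a summit −log10 p of at least 5, hypothalamus had more peaks (51 against 26 in muscle), and the window ranked 81 by muscle peaks in place of 8. With the strongest 12063 peaks kept in each list, muscle again had more, with 16 peaks against 10 in hypothalamus and 9 in liver, and the window ranked 137. On chromosome 29, the window ranked 2 of 52 by muscle peaks, 7 by hypothalamus peaks, and 11 by liver peaks. The megabase after it held 90 hypothalamus, 62 muscle, and 28 liver peaks, and the megabase before it held 50, 13, and 8.

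**Figure D1:**
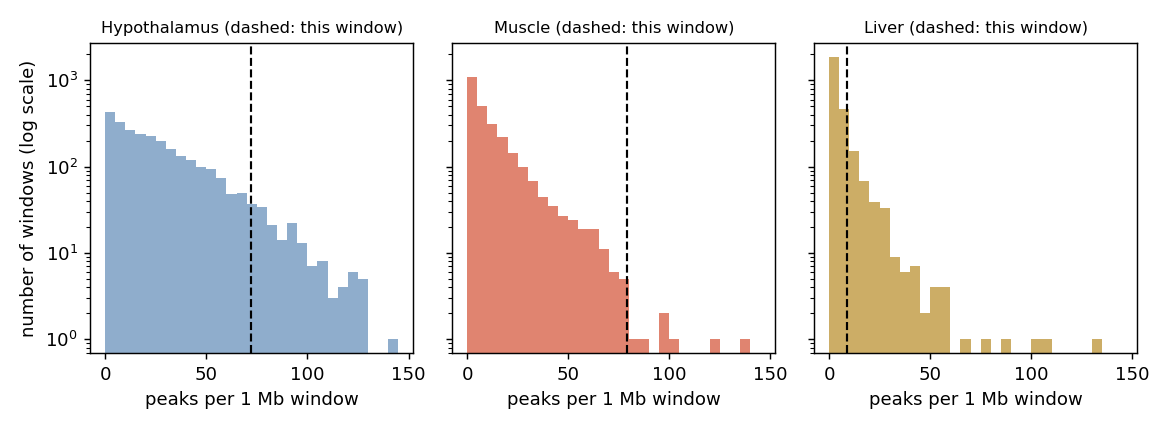
Number of 1 Mb windows (vertical axis, log scale) by the number of peaks per window (horizontal axis), for each list over chromosomes 1 to 29 and X, with the IGF2, H19, and fast troponin window as a dashed line. The line stands at 72 peaks in hypothalamus, at 79 in the far tail of the muscle windows, and at 9 in liver.

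With all peaks kept, muscle peaks covered nearly as much of the window as hypothalamus peaks, and liver peaks far less. Hypothalamus peaks spanned 97448 bp (9.74% of the window), muscle peaks 88979 bp (8.90%), and liver peaks 4617 bp (0.462%). These were 6.42, 23.6, and 4.09 times the median over the windows, and 57, 4, and 396 windows were covered more. The muscle coverage includes the peak for which the window was chosen and was 81660 bp without it, for which no rank was computed. At a summit of at least 5, hypothalamus peaks covered 83772 bp, muscle peaks 44842 bp, and the liver peak 987 bp. Joined over the lists, the peaks formed 102 separate regions of 145734 bp. Hypothalamus alone held 35 of these regions, muscle alone held 33, and 26 were shared by these tissues without liver. The shared regions were the longer ones, with 63899 bp in the 26 regions of hypothalamus and muscle against 34565 bp in the 33 of muscle and 29150 bp in the 35 of hypothalamus. A shared region joins the overlapping peaks of both tissues, so greater length is partly built in. The lengths of such regions were not computed over the chromosomes.

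The peaks were not spread evenly over the window. Peaks of any list closer than 10 kb to each other formed 20 stretches, and 46 of the 100 bins of 10 kb held no peak. The longest interval without a peak in any list ran from 49282818 to 49363944 (81.1 kb), and others ran from 49887903 to 49944002 (56.1 kb) and from 49455010 to 49504840 (49.8 kb). The first part of the window, up to 49094924, was open in hypothalamus alone, with 4 peaks from 49029582 to 49052443 and 4 from 49079010 to 49094924, all 8 without overlap in the other lists. The stretch from 49190115 to 49224882 (34.8 kb) was open in every tissue, with 7 hypothalamus, 14 muscle, and 3 liver peaks, and coverage was about level at 46.1% in hypothalamus and 47.3% in muscle. The next stretch, from 49247904 to 49282817, held 8 hypothalamus peaks against 3 in muscle and 2 in liver.

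In the middle of the window, muscle peaks outnumbered hypothalamus peaks and covered more bases. From 49525867 to 49549882 (24.0 kb), 11 muscle peaks covered 74.1% of the bases and 4 hypothalamus peaks covered 15.6%, with 2 in liver. This stretch holds the longest muscle peak, for which the window was chosen, and without it 10 muscle peaks covered 43.6%. From 49567410 to 49660987 (93.6 kb), 31 muscle peaks covered 42.2% and 14 hypothalamus peaks covered 29.7%, and the liver list had no peak. The longer of these stretches carried 43.5% of the AUC summed over the muscle peaks of the window and 30.2% of that of hypothalamus. At the far end the order turned, and from 49961306 to 49991905 (30.6 kb) 9 hypothalamus peaks covered 65.2% and 7 muscle peaks covered 18.4%. That end stretch carried 23.6% of the AUC of hypothalamus in the window and 6.96% of that of muscle. In bins of 10 kb, muscle covered more than hypothalamus in 19 bins and less in 35. The highest bin was 85.2% covered in muscle, 89.2% in hypothalamus, and 14.2% in liver. The highest muscle bin lies over the longest muscle peak and was 27.0% covered without it, where the highest muscle bin was another at 81.4%. The highest hypothalamus bin also lay in the middle stretches, so the order of the tissues was not the same throughout them.

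**Figure D2:**
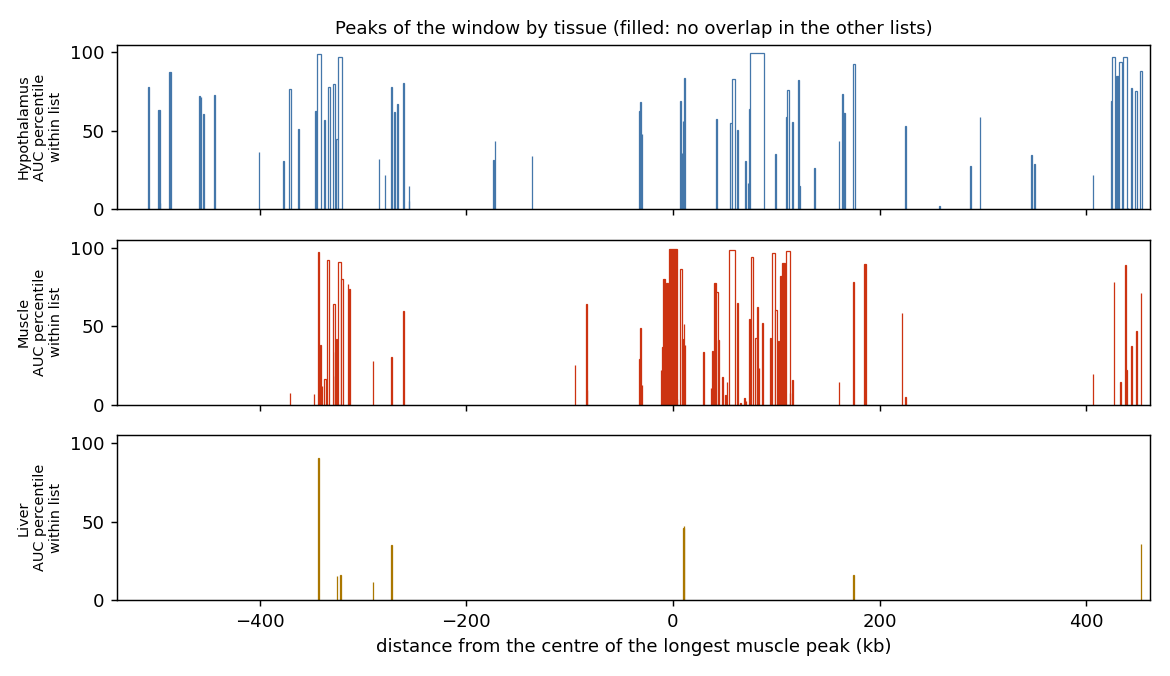
Every peak of the window by tissue, drawn to its length along the distance from the centre of the longest muscle peak (kb), with its AUC percentile within its own list as height and filled where it overlaps no peak of the other lists. Muscle peaks crowd the middle, where 31 lie in a single stretch of 93.6 kb, hypothalamus alone fills the first part, and the 9 liver peaks are scattered.

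**Figure D3:**
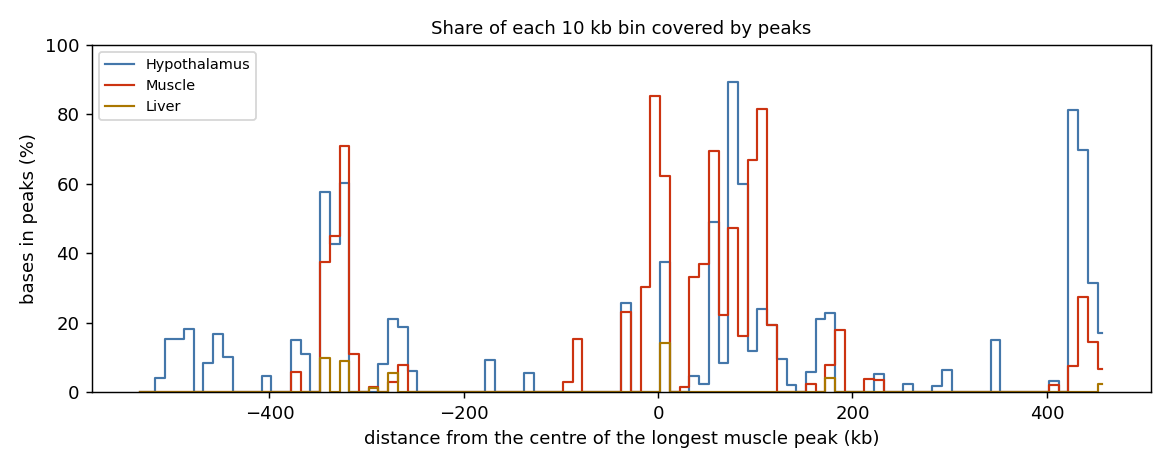
Percentage of the bases of each 10 kb bin that lie in peaks (vertical axis) along the distance from the centre of the longest muscle peak (kb), 1 line per tissue. Muscle reaches 85.2% over its longest peak, for which the window was chosen, hypothalamus has its highest bin of 89.2% farther along, and hypothalamus is above muscle at the far end.

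The muscle peak around which the window was chosen ran from 49534178 to 49541496, a length of 7319 bp. Its AUC was 12363, above 99.0% of the muscle list, and its summit −log10 p of 9.51 was above 89.8%. Per base of its length the AUC was above 55.5% of the list, so its AUC stood out through length more than through height. On the chromosomes it ranked 79 by AUC and 36 by length among all muscle peaks. The nearest hypothalamus peak was 2952 bp away and the nearest liver peak 5940 bp away. It was not isolated, since 6 other peaks of muscle alone lay in the same stretch, and 4 muscle peaks from 49526960 to 49532969 lay within 500 bp of each other and covered 87.6% of those 6010 bp.

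The other muscle peaks among the 5 highest by AUC and the 5 highest by summit overlapped hypothalamus peaks, as did 61.0% of muscle peaks over the chromosomes. Peaks of muscle alone from 49643244 to 49646279 (AUC 2871) and from 49722544 to 49724327 (AUC 2801) ranked 9 and 10 by AUC in the window. The peak from 49591695 to 49597796 had an AUC of 11449 and a summit of 9.18, and it overlapped 2 hypothalamus peaks with AUCs of 1009 and 4251. In AUC percentile the muscle peak stood at 98.9 and these at 55.3 and 83.1. The peak from 49647593 to 49650950 had an AUC of 7083 and a summit of 9.65, the second highest muscle summit of the window. The peak from 49633321 to 49636928 had an AUC of 4960 and a summit of 7.87, with 21.5% of its length in a hypothalamus peak. The remaining muscle peaks singled out by height lay outside the middle, from 49194165 to 49195796 (AUC 5451, summit 10.8) and from 49974848 to 49976138 (AUC 2713, summit 9.38).

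The strongest hypothalamus peaks of the window lay in the same neighborhoods as the muscle peaks. The longest, from 49612898 to 49625997, was 13100 bp, with an AUC of 48149, above 99.9% of the hypothalamus list, and a summit of 18.4. The muscle list had 5 separate peaks inside it, with summits of 3.38 to 9.01, which covered 41.8% of it. The hypothalamus peak from 49193131 to 49197439 had the highest summit of the window, 21.5, with an AUC of 16720. The peak from 49214209 to 49217788 followed with an AUC of 13072 and a summit of 14.9, and 95.9% of it lay in muscle peaks. At the far end were the peaks from 49973501 to 49977648 (AUC 12736, summit 18.2), from 49963049 to 49966086 (AUC 12456, summit 16.3), and from 49969765 to 49972516 (AUC 9233, summit 16.4). The peak from 49711813 to 49714097 had an AUC of 8413 and a summit of 16.9. All 7 of these hypothalamus peaks overlapped muscle peaks. Over the chromosomes 24.3% of hypothalamus peaks did, and their median summit was 12.1, against 5.35 for those overlapping neither other list. Overlap of high hypothalamus peaks with muscle is thus not particular to the window, and no share was computed for peaks as high as these.

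**Figure D4:**
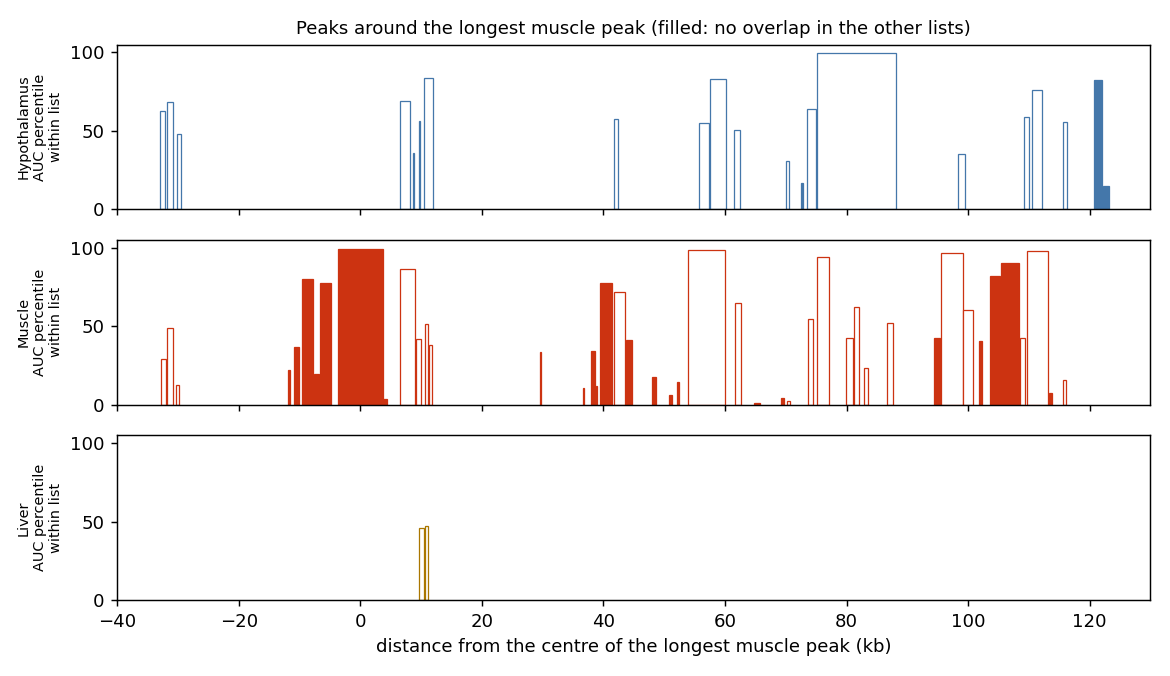
Peaks of each tissue around the longest muscle peak, drawn to length along the distance from its centre (kb), with the AUC percentile within the list as height and filled where there is no overlap in the other lists. The filled muscle peak of 7319 bp stands at percentile 99.0 with no hypothalamus peak over it, and the open hypothalamus peak of 13100 bp stands at 99.9 over 5 muscle peaks.

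Most muscle peaks of the window were weak for their list although they were long. The median summit −log10 p was 4.26 against 5.35 over the whole muscle list, and the median peak stood at summit percentile 25.5, with 20 of 79 at or above the list median. The median length was 776 bp against 482 bp, and lengths ran from 137 to 7319 bp. By AUC the median muscle peak stood at percentile 41.7, and by AUC per base at 16.5. In hypothalamus the peaks were long and of about average height, with a median length of 957 bp against 543 bp, a median summit of 6.40 against 5.99, and median percentiles of 61.1 by AUC and 54.7 by summit. In liver the medians were a length of 517 bp against 431 bp and a summit of 4.15 against 5.07, at percentiles of 35.2 by AUC and 24.7 by summit. The top 5% of a list by AUC took in 5 of the muscle peaks, 5 of the hypothalamus peaks, and none of the 9 liver peaks. By summit it took in 3 hypothalamus peaks, and none of the muscle or liver peaks.

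Muscle peaks were also packed closely, which goes in part with their number. Spacing in windows with as many peaks was not computed. Of the 78 neighboring pairs, 26 lay within 500 bp of each other (33.3%, against 9.96% over the chromosomes), and the median gap was 1203 bp against 14823 bp. In hypothalamus the share was 18.3% against 10.8%, with a median gap of 3208 bp against 9587 bp. With peaks closer than 500 bp joined, 53 muscle, 59 hypothalamus, and 8 liver regions were left, so that hypothalamus had the most, and the window ranked 32 by muscle regions. The longest joined muscle region ran from 49641379 to 49651611, with 5 peaks over 92.0% of its 10233 bp.

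With all peaks kept, a larger share of the hypothalamus peaks overlapped muscle peaks in the window than over the chromosomes, while the share of muscle peaks overlapping hypothalamus was about that over the chromosomes. Of the 72 hypothalamus peaks, 35 overlapped no peak of the other lists (48.6%, Wilson 95% interval 37.4 to 59.9), against a background of 74.8% on chromosomes 1 to 29 and X. Overlap with a muscle peak was found for 37 (51.4%, 40.1 to 62.6), against 24.3%. Overlap in muscle but not liver was found for 29 (40.3%, 29.7 to 51.8), against 11.4%, and overlap in both for 8 (11.1%, 5.74 to 20.4), against 12.9%. At a summit of at least 5 in every list, the shares overlapping muscle and overlapping no other list were at the background. There, 12 of 51 hypothalamus peaks overlapped a muscle peak (23.5%, 14.0 to 36.8) against 23.4%, and 39 overlapped no other list (76.5%, 63.2 to 86.0) against 76.5%. Overlap with a liver peak was found for 1 of these 51 (1.96%, 0.347 to 10.3) against 9.09%. With 200 bp around each summit compared, 24 of 72 overlapped a muscle peak (33.3%, 23.5 to 44.8) against 21.0%, and 48 overlapped no other list (66.7%, 55.2 to 76.5) against 77.8%. Of the 79 muscle peaks, 33 overlapped no other list (41.8%, 31.5 to 52.8), against a background of 36.0%, and the interval held the background. That share was 52 of 79 with 200 bp around each summit (65.8%, 54.8 to 75.3, against 46.9%). Overlap with a hypothalamus peak was found for 45 (57.0%, 46.0 to 67.3), against 61.0%. Overlap in hypothalamus but not liver was found for 37 (46.8%, 36.2 to 57.7), against 30.6%. Overlap in both other lists was found for 8 of 79 (10.1%, 5.22 to 18.7), against 30.4%. With 200 bp around each summit, 24 of the 79 overlapped a hypothalamus peak (30.4%, 21.3 to 41.2), below the background of 48.9%. At a summit of at least 5, 15 of 26 did (57.7%, 38.9 to 74.5), against 68.3%. With equal numbers of peaks in each list, 7 of 16 did (43.75%, 23.1 to 66.8), against 59.9%. The intervals cover counting error only, and neighboring peaks are not independent of each other. The peaks of the window were longer than those of their lists, and the part of peak length in these shares was not tested.

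The muscle peaks found in muscle alone were mostly low, apart from the longest. Their summits ran from 3.01 to 9.51 with a median of 3.74, and 9 of the 33 reached 5. The second largest AUC among them was 2871 against 12363 for the largest. Their median distance to the nearest hypothalamus peak was 3207 bp, with 6 within 1 kb and 9 beyond 10 kb. Such distances were not computed over the chromosomes. Of these 33 peaks, 16 lay in the stretch from 49567410 to 49660987, 7 in that from 49525867 to 49549882, 5 in that from 49190115 to 49224882, and 3 made up a stretch of muscle alone from 49443142 to 49455009. The 35 hypothalamus peaks without overlap had higher summits, from 3.09 to 14.5 with a median of 5.43, and 19 reached 5. They lay farther from the other tissue, at a median of 20787 bp from the nearest muscle peak, with 18 beyond 10 kb. Across lists such summits are not on 1 scale, and the list medians were 5.99 in hypothalamus and 5.35 in muscle.

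Where a hypothalamus and a muscle peak overlapped each other and no further peak of these lists, they were compared by percentile. There were 24 such pairs. The muscle peak had the higher AUC percentile in 3 and the higher summit percentile in 4, and the median AUC percentiles were 39.5 in muscle and 63.4 in hypothalamus. By summit the medians were 24.9 and 61.8. Over the 15371 such pairs of the chromosomes the order was the same, with muscle higher in 18.8% by AUC and 18.2% by summit, and median AUC percentiles of 63.3 in muscle and 84.2 in hypothalamus. The order of the pairs is thus not particular to the window, where both tissues stood lower in their lists than such pairs did elsewhere. The summits lay a median of 63 bp apart, with 16 of the 24 (66.7%) within 100 bp, so most pairs peaked at nearly the same base. Over the pairs of the chromosomes the median was 28 bp, with 79.6% within 100 bp. The summits of the window were thus no closer than those of such pairs elsewhere. In the remaining overlaps, where peaks joined several of the other list, the order could be the other way, as for the muscle peaks from 49591695 and 49647593.

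**Figure D5:**
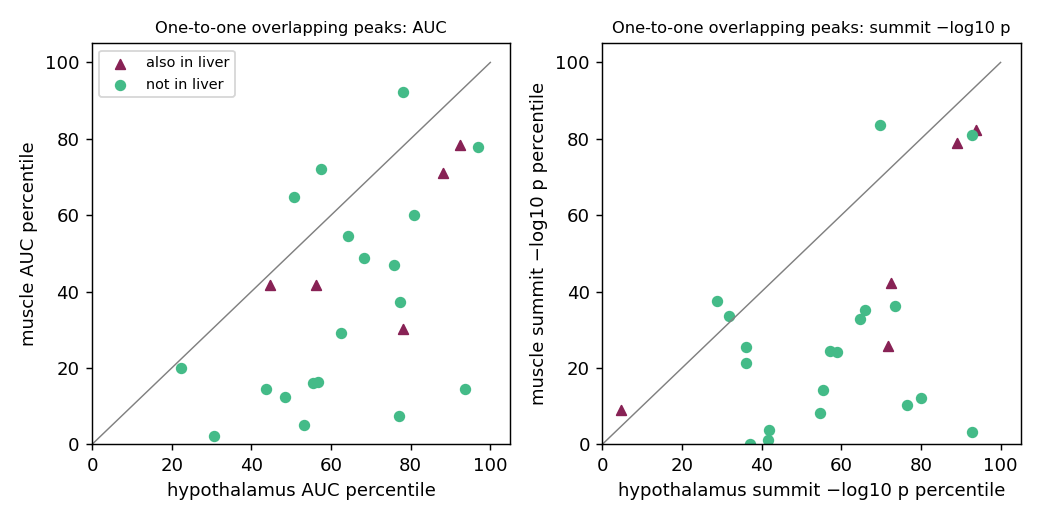
Percentile within the muscle list (vertical axis) against percentile within the hypothalamus list (horizontal axis) for the 24 one-to-one overlapping peaks, by AUC on the left and by summit −log10 p on the right, with triangles for pairs also open in liver. Points above the line, where muscle is higher, number 3 by AUC and 4 by summit.

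The liver peaks of the window were few and mostly lay under peaks of the other tissues. Of the 9 peaks, none was found in liver alone (background 7.78%, and 0 of 9 allows up to 29.9% by the Wilson interval), and 8 overlapped both other lists (88.9%, 56.5 to 98.0), against 79.3%, so both shares were near the background. The remaining peak, from 49247906 to 49248040, overlapped a muscle peak but no hypothalamus peak. With equal numbers of peaks in each list, 5 of the 9 were found in liver alone (55.6%, 26.7 to 81.1, against 29.1%). The peak from 49194632 to 49195618 was the only liver peak above the median of its list by AUC (2523, percentile 90.9) and by summit (8.0, percentile 84.2). The next by AUC were the peaks from 49548444 to 49548960 (538) and from 49547437 to 49548334 (518), which stood 109 bp apart, near the longest muscle peak.

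The bases open in all 3 tissues formed 8 intervals, and the peaks over them differed in height. The summits given here are those of the whole overlapping peaks, and some lay outside the shared bases. This was so in hypothalamus for the interval from 49548537, in liver for that from 49547437, and in muscle for that from 49212355. The interval from 49194632 to 49195618 had the highest summit of the window in every list, at 21.5 for hypothalamus, 10.8 for muscle, and 8.0 for liver. The interval from 49712430 to 49712830 had summits of 16.9, 8.11, and 4.17 in the same order, that from 49215988 to 49216250 had 14.9, 6.86, and 4.01, and that from 49990455 to 49990684 had 14.4, 7.69, and 4.58. In each of these intervals the summit percentile within the list fell from hypothalamus to muscle to liver. For the interval from 49194632 all were high, at 98.6, 93.9, and 84.2. For the others, hypothalamus stood at 89.0 to 93.8, muscle at 71.0 to 82.2, and liver at 20.2 to 37.8. Near the longest muscle peak, the interval from 49548537 to 49548960 had summits of 9.56, 5.59, and 4.15, and that from 49547437 to 49547685 had 8.85, 4.95, and 4.09. From 49265213 to 49265516 the summits were 8.68, 4.27, and 4.49. The interval from 49212355 to 49212996 was weak throughout, with summits of 3.63, 3.69, and 3.66. At a summit of at least 5 in every list, 1 interval was left, the one from 49194632.

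The limits of the window cut through no peak. In muscle the last peak before it ended at 48921900 (AUC 483) and the first inside began at 49167130 (AUC 235), while the last inside ended at 49991004 (AUC 1285) and the first after began at 50015770 (AUC 231). In hypothalamus the peaks at the limits were those ending at 48973216 (AUC 263) and beginning at 49029582 (AUC 2985), and those ending at 49991905 (AUC 6093) and beginning at 50003161 (AUC 502). In liver the nearest peaks outside ended at 48729583 (AUC 318) and began at 50168437 (AUC 234).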

How the data were processed

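ATAC-seq libraries of hypothalamus, muscle, and liver from 3 heifers (9 libraries) were aligned to ARS-UCD1.2 by the authors, who called peaks with Genrich (version 0.6.1 per the submitters' processing notes) at a p value below 0.01, uncorrected, removing PCR duplicates and counting reads with several alignments as fractions. The authors combined the 3 libraries of a tissue, so the deposited lists hold 1 signal value per peak (the AUC), the −log10 p at the summit, and a score capped at 1000 that was not used. Neither value was scaled between lists by the authors, and no depth per library was read from them. Window peaks, percentiles within each list (the share of peaks with a lower value, unplaced sequences included), coverage, spacing, and overlaps of at least 1 bp were computed with scipy 1.17.1, pandas 2.3.3, and numpy 2.4.6 in python 3.11.15, drawn with matplotlib 3.10.9, and checked with bedtools 2.31.1, which gave the same number of tissue-specific peaks in 3 of 3 lists. The code was tested on simulated data of 9000 loci, where it found 4 of 4 planted counts. Members, lists, and comparisons were chosen with earlier results of these data known. The peaks named by rule were the 5 with the highest AUC and the 5 with the highest summit in each list, and every region open in all 3 tissues. Others were named after their values were seen, as were the stretches. Sequences and gene positions on ARS-UCD1.2 were not used here. Alternatives were a summit of at least 5, equal numbers of peaks, chromosomes only, AUC per base, and other rules for overlap and joining.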

Additional observations from a re-analysis of the deposited data

How the results depend on the processing

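Of 51 values of 20 results under other settings, 28 stayed within 1.5 times (counts and covered bases) or within the 95% counting interval (percentiles), and 23 moved. Keeping the strongest 12063 peaks per list keeps hypothalamus summits from 12.1, muscle summits from 5.74, and liver summits from 2.77. The window then held 10 hypothalamus and 16 muscle peaks, over 37919 and 34846 bp. Of these, 3 hypothalamus peaks were found in hypothalamus alone (30%, Wilson interval 10.8 to 60.3), against 36.8% over the chromosomes. In muscle alone were 9 (56.25%, 33.2 to 76.9), against 31.4%. In liver alone were 5 of 9 (55.6%, 26.7 to 81.1), against 29.1%. With a summit of at least 5, 26 muscle peaks over 44842 bp and 1 liver peak of 987 bp were left. Of the 26 muscle peaks, 11 were found in muscle alone (42.3%, 25.5 to 61.1), against 30.02% over the chromosomes. In this setting 1 interval was open in all 3 tissues. With 200 bp around each summit compared, 52 muscle peaks were found in muscle alone (65.8% against 46.9%). The longest muscle peak stood at AUC percentile 99.7 and summit percentile 93.2 on the chromosomes only, and at 55.5 by AUC per base, where the median peak stood at 38.7 in hypothalamus and 16.5 in muscle. In settings chosen after seeing the data, the window ranked 81 by muscle peaks at a summit of at least 5, 137 with equal numbers, and 32 with near peaks joined, and without the longest muscle peak the stretch around it was 43.6% covered in muscle. The order of muscle above hypothalamus by number of peaks turned at a summit of at least 5 (26 against 51) and with near peaks joined (53 against 59). The filters keep fewer peaks by construction, and other causes were not tested. Leaving out a heifer was not run, and no paired analysis was possible because the lists give no heifer a value of its own. Promoter peaks of 4 gene sets, cell type markers, and motif searches need gene positions or sequence on ARS-UCD1.2 and were not run. The lists start at an AUC of 200.0, so weaker open regions are not seen.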
